A study of Mus musculus with 4 samples.

Results

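The 9 genes followed here mark basophils and mast cells, and were read on arrays of B cells taken from lymph nodes of wild type mice and of mice that over-express the microRNA miR-146a: Fcer1a, Ms4a2, Cpa3, Mcpt8, Prss34, Cd200r3, Gata2, Il4 and Hdc. A gene was found by its symbol in the platform annotation, and its brightest probe set, by the mean of all 4 arrays, stood for it. Of the 9 genes, 8 had a probe set with a single gene name, 12 probe sets in all, out of 17097 such genes and 45037 probe sets compared. Prss34, a tryptase-like protease of basophils, had none and was not analysed here. The genes were chosen on their log2 signals in these same arrays, with the transgenic minus wild type differences known, so those differences are given for them as a description and carry no test.

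The wild type group held 2 male Balb/C mice and the transgenic group held 2 male Balb/C mice of miR-146a transgenic genotype, all aged 6 to 8 weeks, with 1 Affymetrix array for each mouse. The labels name no promoter or cell type for the transgene. The B cells were enriched by magnetic removal of other cells, with no sort for a B cell marker named, and dead cells were depleted. The values are log2 signals made by the authors. The mature microRNA named by the genotype is shown for orientation, with its seed, bases 2 to 8, in capitals (RefSeq, GRCm38.p6).
mmu-miR-146a-5p: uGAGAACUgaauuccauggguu

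Basophils circulate in small numbers and mast cells live in tissues, lymph nodes included, and both carry the high-affinity receptor for IgE. When antigen cross-links IgE on that receptor, they release granules with histamine and proteases and make lipid mediators and cytokines such as interleukin-4. Mast cells are known for carboxypeptidase A3, chymases and tryptases, and basophils for the proteases encoded by Mcpt8 and Prss34.

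The deposited values carry no detection call, so each value was read against 11 non-specific control probe sets with 10 to 20 G or C bases. Their means were 2.83, 2.84, 2.95 and 2.85 on the arrays of wild type mice 1 and 2 and transgenic mice 1 and 2. The highest of the 11 lay between 3.49 and 3.57. The arrays hold 23 non-specific controls, and those outside this range of G or C were left out. The one richest in G or C read 6.41 and 6.64 in wild type and 7.22 and 6.58 in transgenic mice. Above or below the controls here refers to the 11, and the at-least folds depend on that choice. Over all probe sets the upper quartile was 6.13 for transgenic mouse 1 and 6.51 to 6.55 on the other 3 arrays, and the values entered as deposited. B cell genes were bright on all 4 arrays, with Cd79a, a chain of the B cell receptor complex, at 10.47 and 10.75 in wild type and 9.55 and 8.86 in transgenic mice. T cell transcripts were bright too, with Cd3e, of the T cell receptor complex, at 10.14 and 10.14 in wild type and 10.48 and 10.17 in transgenic mice.

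Of the 8 measured genes, Cpa3, Il4 and Fcer1a were higher in both transgenic mice than in both wild type mice, by at least 1 log2 unit in the values as deposited. The wild type values of Il4 and Fcer1a lay among the non-specific controls, so their differences have only a lower bound: with values floored at the highest control, 2 genes, Cpa3 and Il4, were past 1 log2 unit, and Fcer1a was higher by at least 0.51. The other 5 differed by less than 0.5 log2 units in either direction. Mcpt8 and Cd200r3, both markers of basophils in the mouse, lay below the highest non-specific control on all 4 arrays. Of the 8, Cpa3, Gata2 and Hdc were above the highest control on all 4 arrays, and Fcer1a and Il4 on the transgenic arrays. The label of a basophil and mast cell group thus holds for these arrays only in part, since Mcpt8, the most specific basophil gene measured, was not above the controls. Over all probe sets 0.318% were higher by at least 1 log2 unit without overlap between the groups, and over the 17097 genes with 1 probe set each 0.45% were, shares from which nothing is read here because the genes were chosen with this contrast in view. In these bulk arrays, more cells of a type and more RNA per cell cannot be told apart.

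**Figure D1:**
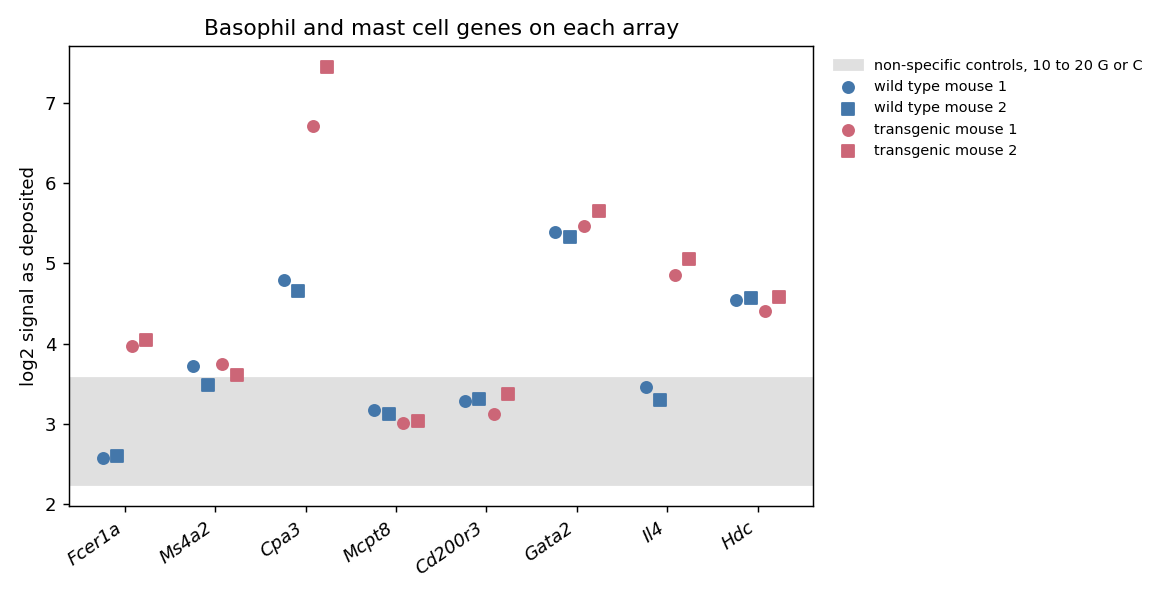
Log2 signal as deposited (vertical axis) of the 8 measured genes on each of the 4 arrays, with blue for wild type and red for transgenic mice, circles for mouse 1 and squares for mouse 2. The grey band spans the non-specific controls over the 4 arrays; Fcer1a and Il4 lie inside it in wild type and above it in transgenic mice, and Mcpt8 and Cd200r3 lie inside it throughout.

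The receptor genes differed among themselves. Fcer1a, which encodes the IgE-binding alpha chain of the high-affinity receptor, was at 2.57 and 2.59 in the wild type mice and at 3.97 and 4.04 in the transgenic mice. Both wild type values were below the mean of the controls, and both transgenic values were above the highest control. The measured difference was 1.42 log2 units (SE 0.10, n = 2 each), or 2.68-fold. Because the wild type signal lay among the controls, a bound is the safer statement: against the highest control in place of the wild type values (3.50), Fcer1a was at least 1.42-fold higher. Ms4a2, which encodes the receptor's beta chain and amplifies its signal, was at 3.71 and 3.48 in wild type and 3.75 and 3.61 in transgenic mice. These values overlapped, stayed close to the highest control and differed by 0.08 (SE 0.13). The second probe set of Ms4a2, at 3.27 and 3.51 against 3.37 and 3.34, differed by -0.04. Cd200r3, an activating relative of the CD200 receptor on basophils and mast cells, was at 3.28 and 3.31 in wild type and 3.13 and 3.37 in transgenic mice, a difference of -0.05 (SE 0.12). Its second probe set was higher by 0.25 without overlap, from 2.58 and 2.54 to 2.84 and 2.79, all below the mean of the controls on their arrays. The alpha chain of the IgE receptor was thus above the controls in the transgenic mice alone, whereas the beta chain differed from its wild type mean by 0.15 and 0.01 log2 units in transgenic mice 1 and 2.

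Among the protease genes the signal of Cpa3 stood out. Cpa3 encodes carboxypeptidase A3, a granule protease of mast cells that basophils also express. It was at 4.79 and 4.66 in the wild type mice and at 6.71 and 7.45 in the transgenic mice. All 4 values were above the highest control, and the groups were far apart, with transgenic mouse 2 higher than transgenic mouse 1 by 0.73. The difference was 2.36 log2 units (SE 0.26, n = 2 each), or 5.12-fold. It was 1.99 for transgenic mouse 1 and 2.72 for transgenic mouse 2 when each was set against the wild type mean. After quantile normalization the 2 transgenic mice lay closer, at 7.00 and 7.37, and the difference was 2.50. Mcpt8, which encodes mast cell protease 8, a basophil granule protease despite its name, was at 3.17 and 3.13 in wild type and 3.01 and 3.03 in transgenic mice. It was lower in the transgenic mice without overlap, by -0.13 (SE 0.10), in a range where the controls themselves lie.

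Of the genes for mediators, Il4 was the one that differed most. Il4, which encodes interleukin-4, the cytokine that drives IgE class switching in B cells, was at 3.46 and 3.30 in wild type and at 4.85 and 5.05 in transgenic mice. The wild type values lay below the highest control and the transgenic values well above it. The difference was 1.58 log2 units (SE 0.13, n = 2 each), or 2.98-fold as measured and at least 2.74-fold against the highest control. Hdc encodes histidine decarboxylase, which makes histamine, and its 2 probe sets did not give the same picture. The brighter one was at 4.54 and 4.57 in wild type and 4.40 and 4.58 in transgenic mice, which overlapped (difference -0.06, SE 0.11). The other was at 4.26 and 4.19 in wild type and 4.92 and 4.62 in transgenic mice, higher by 0.55 (SE 0.14) without overlap. The direction for Hdc therefore turns on which probe set stands for it, and as the mean of both it differed by 0.24.

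Gata2, the transcription factor that basophils and mast cells need for their development and identity, was above the controls on all 4 arrays. Its brighter probe set was at 5.39 and 5.33 in wild type and 5.46 and 5.66 in transgenic mice, higher by 0.20 (SE 0.12) without overlap. The dimmer one, at 3.72 and 3.72 against 3.47 and 3.77, overlapped and differed by -0.10 (SE 0.14). The mean of both differed by 0.05.

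**Figure D2:**
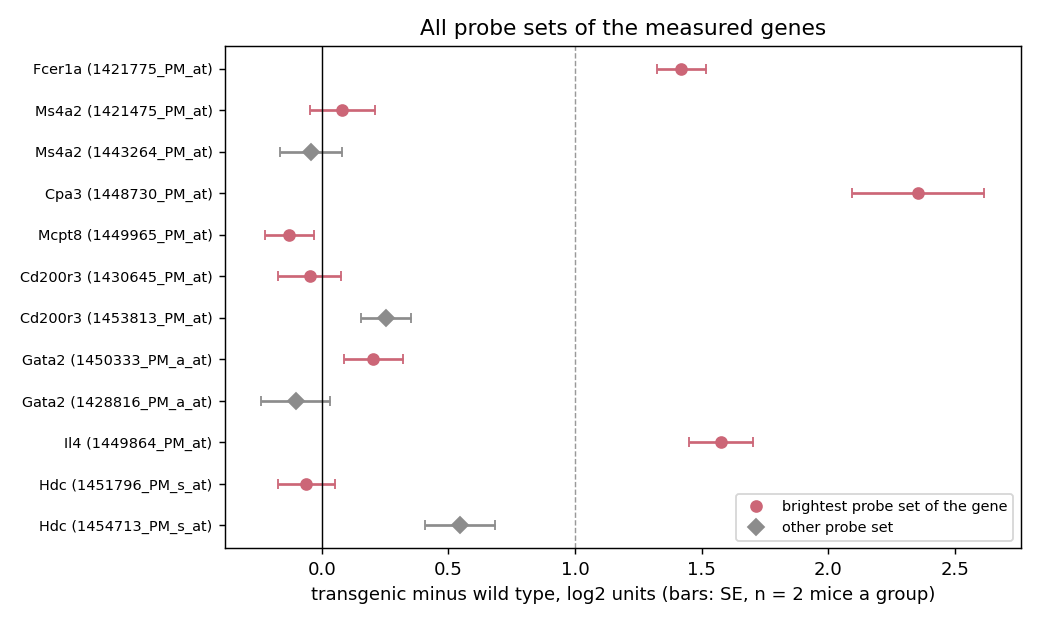
Transgenic minus wild type difference in log2 units (horizontal axis) of all 12 probe sets of the 8 measured genes, with the moderated standard error (bars, 2 mice in each group). Red circles are the probe sets that stand for a gene and grey diamonds the other probe set; the dashed line marks 1 log2 unit, which Cpa3, Il4 and Fcer1a pass as deposited, the last with wild type values among the controls.

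Over the 8 genes the median difference was 0.14 (range -0.13 to 2.36), beside -0.053 over the 17097 genes with 1 probe set each. Nothing is read from these medians, since the genes were chosen with this contrast in view. Of the 8, 4 were higher without overlap, 1 was lower and 3 overlapped. Over all probe sets 17.7% were higher and 31.4% lower without overlap, from which nothing is read here. Under the other scalings, with probe sets averaged and with any 1 mouse left out, the difference of Cpa3 ranged from 1.99 to 2.72.

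The promoters of the 3 genes are shown because these genes were higher together. Each is the 250 bases before the RefSeq start site on the gene's own strand (GRCm38.p6), and capitals mark matches to AGATAA or AGATAG or else TGATAA or TGATAG on either strand, the letters bound by GATA factors such as GATA2. Il4 has a pair of RefSeq start sites, of which the one farther upstream is shown.
Fcer1a, chr1:173227230-173227479, minus strand: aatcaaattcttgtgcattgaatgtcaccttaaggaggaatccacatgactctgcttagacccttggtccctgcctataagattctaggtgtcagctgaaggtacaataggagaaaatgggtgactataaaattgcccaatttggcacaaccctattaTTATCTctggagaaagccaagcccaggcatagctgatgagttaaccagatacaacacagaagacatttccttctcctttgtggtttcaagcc
Cpa3, chr3:20242182-20242431, minus strand: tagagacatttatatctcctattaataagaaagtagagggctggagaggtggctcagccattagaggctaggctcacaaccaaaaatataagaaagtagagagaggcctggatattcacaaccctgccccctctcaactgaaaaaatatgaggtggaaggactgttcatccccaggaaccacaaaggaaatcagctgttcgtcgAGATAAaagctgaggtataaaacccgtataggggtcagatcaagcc
Il4, chr11:53618666-53618915, minus strand: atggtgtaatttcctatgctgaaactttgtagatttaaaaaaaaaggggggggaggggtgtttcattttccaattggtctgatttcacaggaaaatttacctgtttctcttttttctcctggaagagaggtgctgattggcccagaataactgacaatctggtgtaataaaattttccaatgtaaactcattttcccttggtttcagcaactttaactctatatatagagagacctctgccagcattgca

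The Fcer1a window held 1 match, TTATCT, starting 92 bases before the start site, and the Cpa3 window 1 match, AGATAA, starting 46 bases before it. The Il4 window shown held 0 matches, and the window of the other Il4 start site held 1, TGATAG, 80 bases before it. All 9 genes had a promoter in the RefSeq table, 11 windows in all, and 7 of these windows held a match, among them those of Ms4a2, Prss34, Cd200r3 and Hdc. Of all 32851 windows of the same length, 26.5% held one. A match says only that these letters are present in the window.

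Related genes were examined from 5 lists that exclude the 9 genes: mast cell proteases, receptors, mediators, transcription factors and the signalling chain of the IgE receptor. These lists, like those of other cells below, were chosen with earlier results of these data known. The p-values of their genes are therefore a description and not independent tests. Of 67 listed genes 56 had a probe set, 50 of them above the highest control on all 4 arrays and 5 on none. In limma's fit over all probe sets 0 of the 56 measured genes had a Benjamini-Hochberg adjusted p under 0.05, and 13 had an unadjusted p under 0.05. Of all 17097 genes with 1 probe set each, 2404 had an unadjusted p under 0.05 in that fit. Over all probe sets, 0.0377% were called higher and 0.00888% lower. After quantile normalization 3 of the 56 were called higher and 1 lower. The calls over all probe sets moved with the scaling as well, from 17 higher and 4 lower as deposited to 402 higher and 468 lower after quantile normalization. Over the 17097 genes 17.7% were higher and 31.4% lower without overlap, and 0.45% were higher by at least 1 log2 unit. These shares belong beside the counts of every list below. Without overlap 20 of the 56 were higher and 12 lower. Those higher by at least 1 log2 unit were 4: Cma1, Tpsb2, Mcpt4 and Lilrb4a.

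Mast cell protease genes held 3 of those 4. Cma1, which encodes a chymase of connective tissue mast cells, was at 4.91 and 5.004 in wild type and 6.21 and 6.78 in transgenic mice. The groups were apart and all 4 values were above the controls. The difference was 1.54 (SE 0.21, limma adjusted p = 0.129, and 0.013 after quantile normalization). Mcpt4, another chymase gene of connective tissue mast cells, was at 5.35 and 5.46 against 6.19 and 7.10, a difference of 1.24 (SE 0.31, limma adjusted p = 0.241, and 0.041 after quantile normalization). Tpsb2, which encodes the tryptase mast cell protease 6, was at 5.35 and 4.61 against 6.13 and 6.41. Its difference was 1.29 (SE 0.28, limma adjusted p = 0.205, and 0.059 after quantile normalization), but its dimmer probe set differed by -0.20. Ctsg, the cathepsin G gene shared with neutrophils, differed by 0.33. The genes of mucosal mast cell proteases stayed low: Mcpt1, at 2.49 and 2.72 against 2.70 and 2.70, lay below the highest control throughout, and Mcpt2 differed by 0.05. Of 9 measured protease genes 4 were higher and 1 lower without overlap, and the median difference was 0.33. The summed linear signal of the list was 177 to 192 in wild type and 299 to 429 in transgenic mice.

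**Figure D3:**
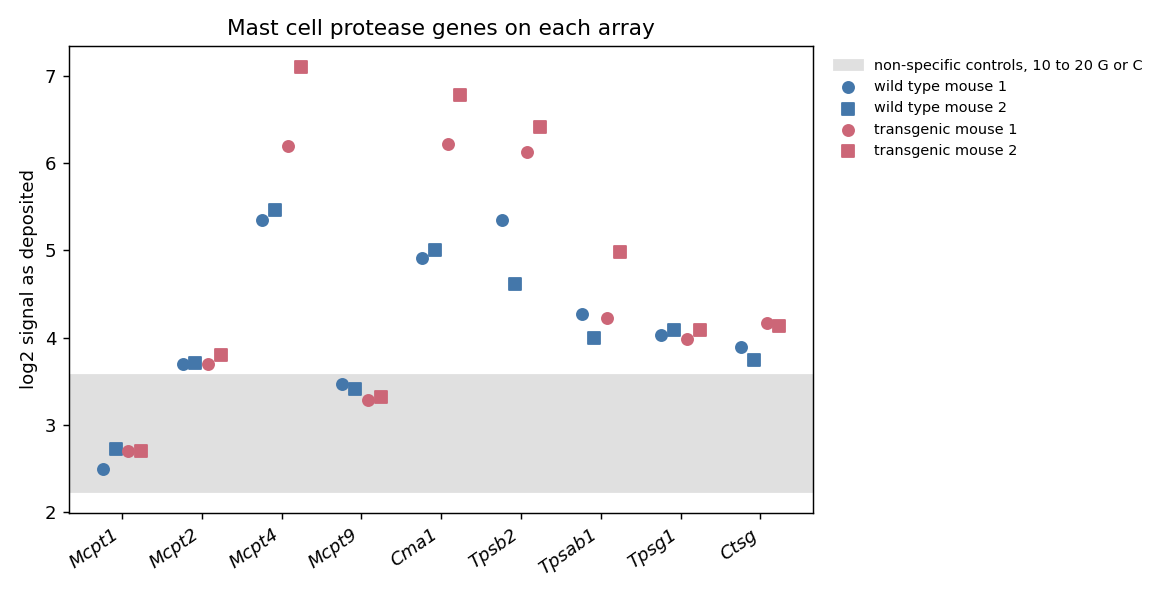
Log2 signal as deposited (vertical axis) of 9 mast cell protease genes on each array, drawn as in the plot of the basophil and mast cell genes. The same 11 non-specific controls are shown as a grey band. Mcpt4, Cma1 and Tpsb2 lie higher on both transgenic arrays than on both wild type arrays, and Mcpt1 and Mcpt9 lie inside the band.

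The receptor list includes Kit, which marks mast cells. Kit, the stem cell factor receptor that mast cells depend on and basophils mostly lack, was at 4.98 and 4.95 in wild type and 4.99 and 5.43 in transgenic mice, a difference of 0.24 (SE 0.17, limma adjusted p = 0.576). Transgenic mouse 1 was level with the wild type mice, so the difference lay in transgenic mouse 2. Lilrb4a, an inhibitory receptor of mast cells and other myeloid cells, was at 5.60 and 5.60 against 6.37 and 7.25, a difference of 1.21 (SE 0.30, limma adjusted p = 0.242, and 0.039 after quantile normalization). Cd200r1 differed by 0.79, Csf2rb, the shared beta chain of the interleukin-3 receptor, by 0.23 and Csf2rb2 by 0.33. Of 12 measured receptor genes 6 were higher and 0 lower without overlap (median 0.24).

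In the mediator list 7 of 13 genes were higher and 3 lower without overlap (median 0.10). Hpgds, which makes prostaglandin D2, differed by 0.34, Alox5, the first enzyme of leukotriene synthesis, by 0.27, and Ndst2, needed for the heparin of mast cell granules, by -0.38. Tph1, the serotonin-making enzyme, was at 2.93, 3.20 and 3.32 on the first 3 arrays and above the highest control in transgenic mouse 2 alone (4.02). Il13, which type 2 cells often make with Il4, was at 4.81 and 4.75 in wild type and 4.76 and 5.004 in transgenic mice, a difference of 0.10 (SE 0.13, limma adjusted p = 0.74).

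Genes of the signalling chain and of transcription factors included higher and lower ones. Over all genes with 1 probe set each, 17.7% were higher and 31.4% lower without overlap, and nothing is read from the counts here. Fcer1g, the gamma chain that the IgE receptor shares with other Fc receptors, was at 6.92 and 7.02 in wild type and 7.01 and 7.39 in transgenic mice, a difference of 0.23 (SE 0.16, limma adjusted p = 0.573). Syk, the kinase that the receptor recruits, differed by -0.69 and Plcg2 by -0.84 (limma adjusted p = 0.137 each), and both are also part of B cell receptor signalling. After quantile normalization Plcg2 passed as lower (-0.68, limma adjusted p = 0.040). Inpp5d differed by -0.43 and Lat, an adaptor shared with T cells, by 0.33. Of 12 signalling genes 1 was higher and 4 lower without overlap (median 0.005). Among 10 transcription factor genes 2 were higher and 4 lower (median -0.09): Lmo2 differed by -0.72 (limma adjusted p = 0.144), Gata1 by -0.10, Cebpa by 0.20 and Runx1 by -0.29.

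Genes of other cells differed between the groups in the same arrays. B cell genes were lower without overlap in 13 of 13 (median -0.94, summed linear signal 17298 to 18113 in wild type and 9160 to 9869 in transgenic mice). Neutrophil genes were higher in 12 of 13 (median 1.09, summed signal 465 to 467 and 1740.0 to 2379.9), and S100a8, of the calcium-binding pair abundant in neutrophils, differed by 2.58. Among the 13, Ngp and Chil3 rose past the threshold, the 2 genes of these lists that did so as deposited (limma adjusted p = 0.0219 each). T cell genes were higher in 12 of 16 and lower in 2 (median 0.26, summed signal 14829 to 15150.1 and 17559 to 20162). Cd8a, the T cell gene with the smallest p, differed by 1.14 (limma adjusted p = 0.101), and its other probe sets by 0.64 and 1.90. Monocyte and macrophage genes were higher in 6 of 10 and lower in 0 (median 0.18), natural killer genes higher in 5 of 10 and lower in 1 (median 0.29), dendritic cell genes higher in 4 of 7 and lower in 2 (median 0.09), and erythroid and platelet genes higher in 3 of 8 and lower in 1 (median 0.04). After quantile normalization 7 neutrophil, 4 T cell, 2 monocyte and macrophage and 2 natural killer genes were called higher. Under that scaling 9 B cell genes and 1 natural killer gene were called lower, beside 402 higher and 468 lower over all probe sets. The part of these cells in the differences of Cpa3, Fcer1a and Il4 was not tested.

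Helper T cells also make interleukin-4, so their genes are given beside Il4. Of 11 genes of type 2 and follicular helper T cells 5 were higher and 1 lower without overlap (median 0.10, summed signal 1290.1 to 1327 in wild type and 1636 to 1965 in transgenic mice). In transgenic mice Icos, the brightest of the 11 there at 9.73 and 10.03, weighed most in that sum. Icos, a co-stimulator of helper T cells, differed by 1.39 (SE 0.14, limma adjusted p = 0.0935, and 0.0094 after quantile normalization). Gata3, the type 2 regulator, differed by 0.56 (limma adjusted p = 0.252, and 0.031 after quantile normalization). Il4ra differed by 0.55, but Il5 by -0.09. Cxcr5, which follicular B cells share, differed by -1.28 (limma adjusted p = 0.121, and 0.018 after quantile normalization). Cd4, a marker of helper T cells kept in the T cell list, was lower without overlap. It was at 7.76 and 7.90 in wild type and 7.05 and 7.03 in transgenic mice, a difference of -0.79. Its dimmer probe set differed by -0.08. Eosinophils can also carry Il4. Of 7 eosinophil genes 5 were higher and 1 lower without overlap (median 0.15), with summed signals of 86.6 to 90.9 in wild type and 82.8 to 87.8 in transgenic mice. Epx, eosinophil peroxidase, was at 3.22 and 3.09 against 3.45 and 3.40, below the highest control on all 4 arrays, as were Siglecf and Ccr3. Prg2, the eosinophil major basic protein, differed by 0.40, Alox15 by 0.43 and Il5ra, which some B cells also express, by -0.87. Il5ra was the brightest of the 7 in wild type mice, at 4.73 and 5.06 against 3.94 and 4.11 in transgenic mice. The summed signals of this list therefore carry its fall and do not show the 5 genes that were higher. Which cells carried the Il4 transcript was not tested.

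**Figure D4:**
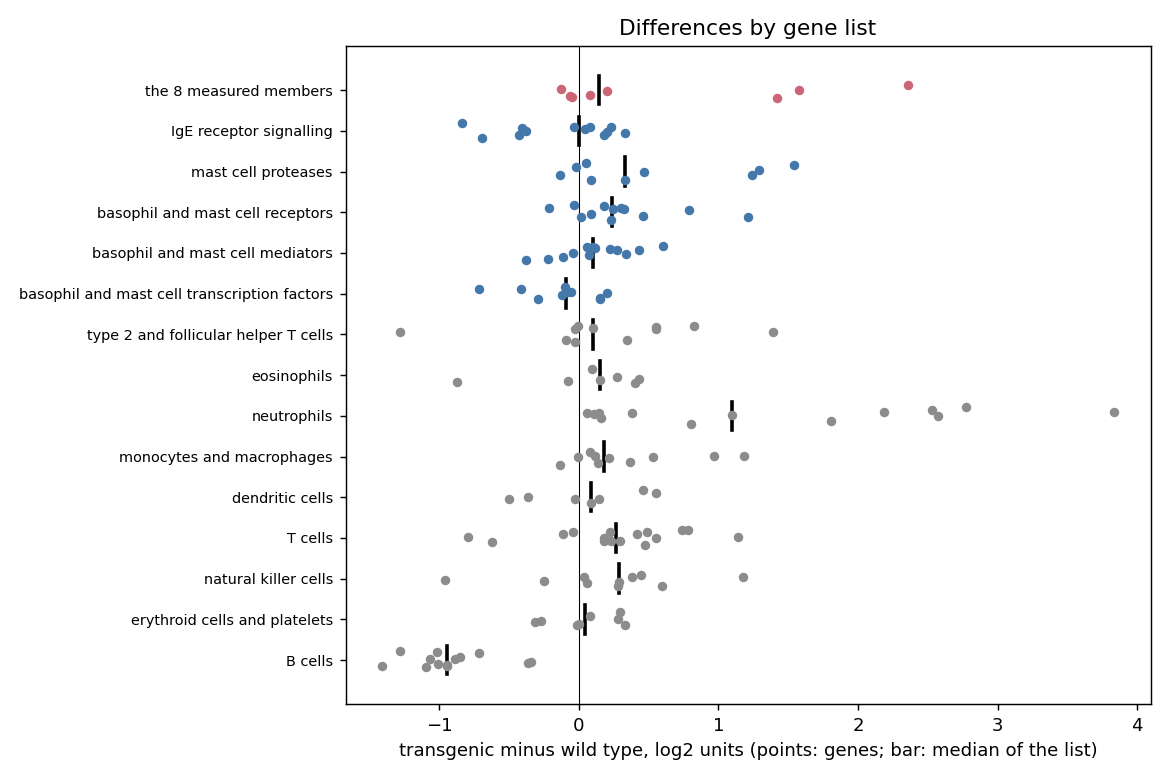
Transgenic minus wild type difference in log2 units (horizontal axis) of each gene, by list; points are genes and black bars the median of a list. The 8 measured members split into 3 genes beyond 1 log2 unit as deposited (2 with values floored at the highest control) and 5 near 0, mast cell proteases show 3 genes beyond 1, and B cell genes all lie below 0.

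The genes whose 4 values were most like a mean profile of members were found by distance. The reference was the mean profile, each gene centred on its own mean, of Fcer1a, Cpa3, Gata2, Il4 and Hdc, the 5 members that reached 1 log2 unit above the mean of the controls on any array. Fcer1a and Il4 reached it on the transgenic arrays alone, so the reference was itself set in part by the contrast between the groups. The 5 members differed widely, from -0.06 for Hdc to 2.36 for Cpa3, so the mean profile was that of no single member. Among 13484 other genes that reached that level, the nearest by root mean square difference over the 4 arrays were Hsph1 (0.046), Cst7 (0.047), Coq10b (0.058), Il1b (0.058), Aqp3 (0.059) and Trgv1 (0.063). Hsph1, a heat shock protein, was at 8.11 and 8.02 in wild type and 9.09 and 9.41 in transgenic mice. Il1b, the inflammatory cytokine interleukin-1 beta, was at 5.95 and 6.03 against 6.87 and 7.18. With 4 arrays in 2 groups, likeness here reflects little more than the difference between the groups and between the 2 transgenic mice.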

How the data were processed

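Per the labels' protocols, total RNA of the enriched B cells of each mouse (2 per group) was labelled with an Affymetrix 3' IVT kit. The deposited values are the authors' log2 signals, 1 for each of 45141 probe sets and array, from 2.01 to 13.03. No source names the scale, and log2 was inferred from the range. Background correction, normalization and summary method are not given in the sources used here.

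Groups came from the sample titles. Genes were named through the platform's annotation (28898 probe sets with 1 gene, 551 with several). The fit left out 104 control probe sets and used limma 3.58.1 (R 4.3.3) on the other 45037, with lmFit, eBayes, no replicate block, two-sided p-values adjusted by Benjamini-Hochberg and a threshold of 0.05 (degrees of freedom 2 residual, 2.69 prior). SEs are limma's moderated ones. On simulated data this fit recovered 6% of 50 changes of 1 log2 unit and 84% of 50 changes of 2, with 2 false calls. Changes near 1 unit would mostly be missed in such data. The simulation gave both groups the same variance, drawn from the fitted prior, and changed few of the probe sets. In the real arrays the transgenic mice differed more from each other than the wild type mice did, so these rates may not carry over. The small number of arrays limits precision: an exact permutation test of 2 against 2 cannot give a two-sided p below 0.333.

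The members and the 14 lists were chosen with earlier results of these data known. Named genes were all members, 13 defining genes, up to 4 genes of a list by smallest p, those past the threshold, and the 6 nearest in profile. Genes singled out outside this rule after their values were seen were Mcpt1, Mcpt2, Mcpt9, Siglecf, Ccr3 and Il5. An at-least fold sets the transgenic mean against, on each wild type array, the higher of the gene's value and the highest control. Alternatives were the block, quantile normalization, median centring, a filter on mean signal, a trended and robust eBayes, a threshold of 0.1, probe set means, other control limits and leaving out each array. Figures were drawn with matplotlib 3.10.9.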

Additional observations from a re-analysis of the deposited data

How the results depend on the processing

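The labels do not say that mice of one number belong together, and their arrays' deviations from the group means were uncorrelated over the probe sets (0.014). With the replicate number as a block, 15 probe sets were called over all and 0 of the 56 related genes (12 at an unadjusted p under 0.05). The 21 calls over all probe sets became 51 with the filter on mean signal (probe sets above 4.10, the 40th percentile), 614 after median centring (189 higher, 425 lower), 870 after quantile normalization and 139 at a threshold of 0.1. Leaving out 1 mouse gave from 0 calls (with either wild type mouse left out, where 1631 and 1576 had an unadjusted p under 0.05) to 4140 (without transgenic mouse 1) and 19110 (without transgenic mouse 2), with 1 residual degree of freedom, the lone mouse being assumed to vary like the other group. Among the 56 related genes the 0 calls became 2 after median centring and 4 after quantile normalization, and between 0 and 22 when 1 mouse was left out (16 without transgenic mouse 1, 22 without transgenic mouse 2). Of these genes, 7 were lower without overlap after quantile normalization in place of 12. Leaving out 1 mouse gave 22 to 37 higher (37 without transgenic mouse 1) and 12 to 24 lower (24 without transgenic mouse 2). A gene without overlap stays so when a mouse is left out. These counts therefore could not fall and say nothing about stability.

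As deposited 3 members were past 1 log2 unit without overlap. With values floored at the highest control, an alternative added after seeing the data, 2 were, since Fcer1a then differed by 0.51. The other alternatives did not use the floor, and leaving out a mouse could not change the count, because the gaps between the groups already exceeded 1, so they say nothing about its stability. With either other control limit 3 members were above the controls on all 4 arrays. Differences of Cpa3 and Gata2 kept their sign under 7 alternatives each, most of which could not have changed it. Neither gene overlapped between the groups, so leaving out a mouse could not change the sign. Cpa3 has a single probe set, so averaging probe sets left it as it was. Gata2 ranged from 0.05 to 0.36 over these alternatives. Ms4a2 changed sign under 1, Hdc under 2 and Cd200r3 under 3. Over all probe sets the difference between the 2 mice of a group had an SD of 0.12 in wild type and 0.32 in transgenic mice. The fit takes 1 variance for both groups. Why the counts moved with the scaling, the filter or a left-out mouse was not tested. Signals near the controls limit Fcer1a, Il4, Ms4a2, Mcpt8 and Cd200r3.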
